A study of Mus musculus with 6 samples.

Results

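The 10 genes described here, Cpa3, Cma1, Mcpt8, Prss34, Ms4a2, Cd200r3, Il1rl1, Fcer1a, Hdc and Cyp11a1, are a list of mast cell and basophil genes, taken by symbol from a table of 49671 genes. All 10 were in the table and all 10 passed the filter on low counts. RNA was sequenced from bone marrow LSK cells of BALB/c mice, the fraction negative for Lineage markers and positive for Sca-1 and Kit, which holds stem cells and early progenitors. Both groups were infected with a retrovirus that marks cells with GFP. In the shCxxc5 group (3 libraries) it carried a hairpin against Cxxc5, a gene for a zinc finger protein of the CXXC type, and in the shCtrl group (3 libraries) a hairpin with no mouse target. GFP-positive LSK cells were sorted and cells of several mice were pooled before RNA was taken from 20000 to 50000 cells, so no library is a single animal. The libraries carry the replicate numbers 2, 3 and 4 in each group, and a pair below means the shCxxc5 and shCtrl libraries of equal number. Ages and times are not given in the labels. Nothing in the labels says that the numbers are separate cultures or groups of mice, so a p-value here covers only how much these libraries vary among themselves.

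Mast cells and basophils are granulated cells that bind IgE through a high-affinity surface receptor and release histamine, proteases and cytokines when antigen crosslinks it. Mast cells mature in tissues and depend on Kit, while basophils mature in the marrow, circulate in blood and respond to IL-3. Both come from early marrow progenitors that express GATA factors, and they share several granule and receptor genes. Mouse mast cells are told by chymases and tryptases such as Cma1, and mouse basophils by the proteases Mcpt8 and Prss34.

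In both groups the library numbered 2 was unlike the other 2. Ly6a, the gene of the sort marker Sca-1, was at 46.3 and 33.1 CPM (counts scaled to an equal library size, with TMM factors) in shCtrl 2 and shCxxc5 2, against 703 to 804 CPM in the other 4 libraries. Kit, the other sort marker gene, lay between 82.2 and 110.3 CPM in all 6. The targeted gene Cxxc5 was at 82.0, 59.8 and 57.8 CPM in shCtrl 2, 3 and 4 and at 6.73, 17.4 and 17.9 CPM in shCxxc5 2, 3 and 4, so the groups matched their labels. Library totals ran from 15002414 to 27754019 counts, and the lowest count of any of the 10 genes in any library was 106. Each comparison is therefore given over all 6 libraries, within each pair, and over replicates 3 and 4 alone.

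The 10 genes together took 0.0334%, 0.0523% and 0.0546% of all counts in shCtrl 2, 3 and 4. In the shCxxc5 libraries they took 0.227%, 0.0521% and 0.0495%. The libraries numbered 3 and 4 were thus alike in both groups, shCtrl 2 was the lowest and shCxxc5 2 was the highest. In pairs 3 and 4 the summed level barely differed while single genes went opposite ways: Mcpt8, Prss34 and Ms4a2 were higher with shCxxc5, and Cpa3, Cma1, Il1rl1 and Fcer1a were lower. In bulk RNA, fewer cells of a type and less RNA per cell cannot be told apart.

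**Figure D1:**
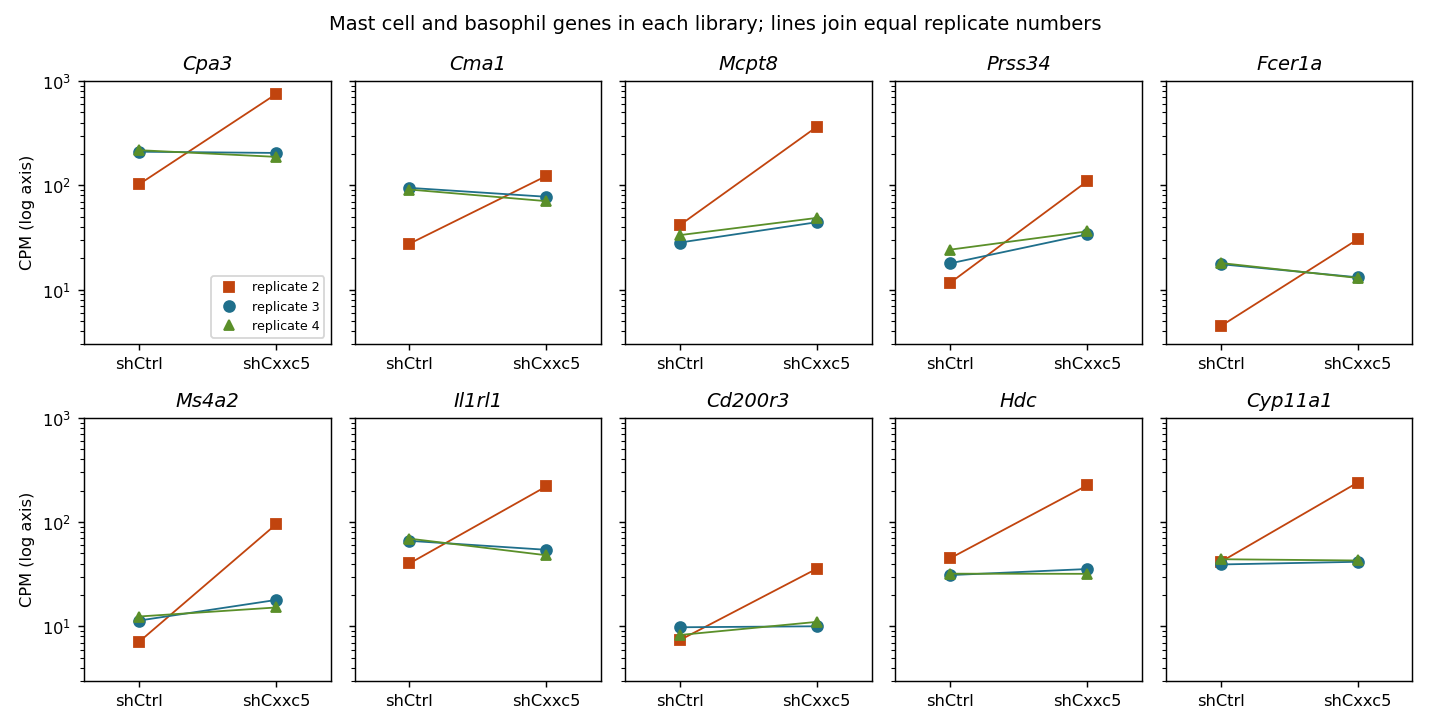
CPM of each of the 10 genes (log axis) in each library; each point is 1 library and lines join shCtrl and shCxxc5 of equal replicate number. The replicate 2 line climbs in every panel, while the replicate 3 and 4 lines climb for Mcpt8, Prss34 and Ms4a2 and descend for Cma1, Il1rl1 and Fcer1a.

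Start-site windows of the 4 proteases and of Ms4a2 are shown because these genes split in replicates 3 and 4. Mcpt8, Prss34 and Ms4a2 rose there, and Cpa3 and Cma1 fell. They are RefSeq sequences of build GRCm38.p6, each from 250 bases before to 50 bases after the annotated start, printed 5′ to 3′ on the strand of the gene. The genome is the reference strain's, not that of BALB/c. The windows are chr3:20242132-20242431 for Cpa3 (minus strand), chr14:55944626-55944925 for Cma1 (minus), chr14:56085148-56085447 for Mcpt8 (minus), chr17:25298144-25298443 for Prss34 (plus) and chr19:11623670-11623969 for Ms4a2 (minus). Capitals mark GATA motif letters, which are AGATAA or TGATAA or AGATAG or TGATAG read on either strand.
Cpa3: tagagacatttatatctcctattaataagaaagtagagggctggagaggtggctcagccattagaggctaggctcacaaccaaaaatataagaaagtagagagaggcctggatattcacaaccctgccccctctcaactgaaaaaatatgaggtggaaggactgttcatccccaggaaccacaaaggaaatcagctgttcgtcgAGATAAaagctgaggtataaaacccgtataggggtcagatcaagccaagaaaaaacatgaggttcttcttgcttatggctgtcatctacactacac
Cma1: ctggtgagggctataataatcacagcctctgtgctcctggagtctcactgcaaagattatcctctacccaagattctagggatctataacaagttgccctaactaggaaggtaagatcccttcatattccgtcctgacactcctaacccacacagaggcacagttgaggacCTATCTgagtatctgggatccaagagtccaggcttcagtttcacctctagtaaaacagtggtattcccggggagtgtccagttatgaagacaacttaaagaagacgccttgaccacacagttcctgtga
Mcpt8: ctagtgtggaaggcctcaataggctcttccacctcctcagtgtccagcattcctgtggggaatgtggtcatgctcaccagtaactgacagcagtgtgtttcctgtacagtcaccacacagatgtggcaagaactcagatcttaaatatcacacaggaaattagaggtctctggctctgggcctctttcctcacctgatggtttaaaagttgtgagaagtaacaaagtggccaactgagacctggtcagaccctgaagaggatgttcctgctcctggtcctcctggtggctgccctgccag
Prss34: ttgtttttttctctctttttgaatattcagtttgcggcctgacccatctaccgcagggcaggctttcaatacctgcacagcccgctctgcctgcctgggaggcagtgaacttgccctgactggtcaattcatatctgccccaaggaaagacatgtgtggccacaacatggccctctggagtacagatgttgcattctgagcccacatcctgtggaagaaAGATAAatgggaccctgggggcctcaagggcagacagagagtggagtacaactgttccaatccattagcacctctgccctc
Ms4a2: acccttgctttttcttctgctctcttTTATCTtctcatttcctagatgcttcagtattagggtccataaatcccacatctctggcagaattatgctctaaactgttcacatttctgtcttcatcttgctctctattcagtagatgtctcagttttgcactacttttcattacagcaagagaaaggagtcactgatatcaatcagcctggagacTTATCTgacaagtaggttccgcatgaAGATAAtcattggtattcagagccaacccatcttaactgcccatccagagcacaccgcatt
The letters of a GATA motif were found in windows of 9 of the 10 genes, in 10 of their 12 windows (Il1rl1 and Cyp11a1 have 2 starts each), against 29.8% of all 32851 windows in the table. Mcpt8 was the gene without such letters in its window. The MITF E-box letters CACGTG or CATGTG occurred in 3 of 12 windows (20.4% of all windows), and the RUNX letters TGTGGT in 6 of 12 (16.8%), both strands searched. The STAT letters TTCNNNGAA occurred in 0 of 12 (8.3%). These are matches of letters and do not show that a factor binds there.

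Among the proteases, Mcpt8 and Prss34, best known from basophils, rose in replicates 3 and 4, while Cma1 and, by a small margin, Cpa3, best known from mast cell granules, fell. Cpa3 (ENSMUSG00000001865, chr3:20215620-20242181 in GRCm38, minus strand) encodes carboxypeptidase A3, a granule exopeptidase of mast cells and basophils and of their progenitors. It was at 102, 210.1 and 217 CPM in shCtrl 2, 3 and 4, and at 748, 204 and 188 CPM in shCxxc5 2, 3 and 4. The shCxxc5 2 library was thus 3.44-fold above the next highest, and the groups overlapped. In replicates 3 and 4 alone Cpa3 fell by 0.12 on the log2 scale (SE 0.04, n = 2 per group, edgeR quasi-likelihood test, Benjamini-Hochberg adjusted p = 0.0499). This call was lost with DESeq2 (adjusted p = 0.191) and with limma-voom (adjusted p = 0.0646).

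Cma1 (ENSMUSG00000022225, chr14:55941451-55944675, minus strand) encodes mast cell chymase 1. Its levels were 27.5, 94.6 and 91.2 CPM in shCtrl 2, 3 and 4 and 123, 77.7 and 70.6 CPM in shCxxc5 2, 3 and 4. Both replicate 2 libraries lay outside the range of the other 4, shCtrl 2 below and shCxxc5 2 above. In replicates 3 and 4 Cma1 fell by 0.32 (SE 0.05, edgeR adjusted p = 5.64e-05), 1.25-fold lower. Cma1 and Mcpt8 belong to a cluster of similar protease genes on chromosome 14, and counts of near copies can be split between them.

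Mcpt8 (ENSMUSG00000022157, chr14:56082166-56085273, minus strand) encodes mast cell protease 8, which in spite of its name is a basophil marker in the mouse. It was at 41.5, 28.3 and 33.3 CPM in shCtrl 2, 3 and 4 and at 364, 44.3 and 48.7 CPM in shCxxc5 2, 3 and 4. Every shCxxc5 library lay above every shCtrl library. Within pairs 2, 3 and 4 Mcpt8 was 8.73-, 1.56- and 1.46-fold higher with shCxxc5, and in replicates 3 and 4 it rose by 0.61 (SE 0.08, edgeR adjusted p = 1.1e-06).

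Prss34 (ENSMUSG00000056399, chr17:25298394-25300165, plus strand) encodes mast cell protease 11, a serine protease that is likewise most abundant in basophils. It was at 11.6, 17.9 and 24.2 CPM in shCtrl 2, 3 and 4, and at 109, 34.0 and 36.2 CPM in shCxxc5 2, 3 and 4. The groups did not overlap. Prss34 was 9.34-, 1.90- and 1.495-fold higher in pairs 2, 3 and 4 and rose by 0.77 in replicates 3 and 4 (SE 0.10, edgeR adjusted p = 9.84e-06), the largest such difference of the 10 genes.

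The genes of the IgE receptor's alpha and beta chains went opposite ways in pairs 3 and 4. Fcer1a (ENSMUSG00000005339, chr1:173221284-173227214, minus strand) encodes the alpha chain, which binds IgE. Its levels were 4.47, 17.6 and 18.0 CPM in shCtrl 2, 3 and 4 and 30.4, 13.1 and 12.9 CPM in shCxxc5 2, 3 and 4. The lowest and the highest library were both replicate 2, and replicates 3 and 4 of shCxxc5 lay below those of shCtrl. There Fcer1a fell by 0.44 (SE 0.10, edgeR adjusted p = 0.0023).

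Ms4a2 (ENSMUSG00000024680, chr19:11615523-11623719, minus strand) encodes the beta chain, which amplifies the receptor's signal. It was at 7.08, 11.4 and 12.4 CPM in shCtrl 2, 3 and 4 and at 94.8, 17.9 and 15.2 CPM in shCxxc5 2, 3 and 4. The groups did not overlap, and the 13.2-fold difference of pair 2 was the largest of the 10 genes. In replicates 3 and 4 Ms4a2 rose by 0.50 (SE 0.11, edgeR adjusted p = 0.0016). That call was lost without shCtrl 3 (edgeR adjusted p = 0.0737) and without shCxxc5 3 (edgeR adjusted p = 0.111). The gamma chain gene Fcer1g, which other myeloid cells also express, was at 77.8, 22.1 and 21.6 CPM in shCtrl 2, 3 and 4 and at 50.7, 17.9 and 21.3 CPM in shCxxc5 2, 3 and 4, with no call in replicates 3 and 4 (edgeR adjusted p = 0.243).

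The other receptors split as well. Il1rl1 (ENSMUSG00000026069, chr1:40429570-40465415, plus strand) encodes ST2, the receptor of the alarm cytokine IL-33 on mast cells, basophils and innate lymphoid cells. It was at 40.1, 66.1 and 69.3 CPM in shCtrl 2, 3 and 4 and at 219.7, 54.2 and 48.1 CPM in shCxxc5 2, 3 and 4. It fell by 0.39 in replicates 3 and 4 (SE 0.06, edgeR adjusted p = 2.99e-05), while in pair 2 it was 5.47-fold higher. Cd200r3 (ENSMUSG00000036172, chr16:44943678-44981380, plus strand) encodes an activating receptor of the CD200 receptor family on basophils and mast cells, and its counts may be split with those of its paralogs. Its levels were 7.38, 9.80 and 8.27 CPM in shCtrl 2, 3 and 4 and 35.7, 10.02 and 11.04 CPM in shCxxc5 2, 3 and 4. The groups did not overlap, but the libraries numbered 3 lay close together and the difference in replicates 3 and 4 was 0.20 (SE 0.13, edgeR adjusted p = 0.300).

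The enzyme genes Hdc and Cyp11a1 were higher with shCxxc5 in pair 2 and were not called in replicates 3 and 4. Hdc (ENSMUSG00000027360, chr2:126593667-126619299, minus strand) encodes histidine decarboxylase, which makes histamine. It was at 45.0, 31.0 and 32.0 CPM in shCtrl 2, 3 and 4 and at 225, 35.5 and 31.9 CPM in shCxxc5 2, 3 and 4, and differed by 0.11 in replicates 3 and 4 (SE 0.08, edgeR adjusted p = 0.342). Both replicate 2 libraries were above all others. Cyp11a1 (ENSMUSG00000032323, chr9:58006411-58027023, plus strand) encodes the enzyme that starts steroid synthesis from cholesterol. Its levels were 41.5, 39.2 and 44.0 CPM in shCtrl 2, 3 and 4 and 239, 41.6 and 42.8 CPM in shCxxc5 2, 3 and 4. The other 5 libraries thus lay within a narrow band, and the difference in replicates 3 and 4 was 0.03 (SE 0.07, edgeR adjusted p = 0.806). Cyp11a1 shares 145 exon bases with a gene on its own strand, and the other 9 genes share none in the annotation used.

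Per kilobase of exon, which allows levels of different genes to be set side by side, Cpa3 was the most abundant of the 10 in every library. Its level ran from 67.3 CPM per kb in shCtrl 2 to 493 CPM per kb in shCxxc5 2. Cma1 was next in the libraries numbered 3 and 4, at 64.7 to 86.8 CPM per kb, while in both replicate 2 libraries Mcpt8 was next, at 41.6 and 364 CPM per kb. Cd200r3 was the lowest in every library, between 1.23 and 5.96 CPM per kb.

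Over all 6 libraries none of the 10 genes was called. The fitted log2 differences were 2.15 (SE 0.87) for Mcpt8, 2.06 (SE 0.77) for Ms4a2 and 1.75 (SE 0.54) for Prss34, each with an edgeR adjusted p = 0.940 (n = 3 per group). The other 7 ran from 0.35 for Cma1 to 1.44 for Hdc. The same test called 0% of the 14637 genes tested, with 575 at an unadjusted p under 0.05. Limma-voom called 0 genes. DESeq2 called 19, none of them among the 9 of the 10 genes to which it gave an adjusted p; it gave none to Mcpt8. With the replicate number as a block, edgeR again called 0 genes (1796 at an unadjusted p under 0.05) and DESeq2 147, again none of the 10. The groups did not overlap for 4 of the 10 genes, Mcpt8, Prss34, Ms4a2 and Cd200r3, all higher with shCxxc5, against 6.695% of all genes tested. For each of these 4, p was 0.1 in an exact permutation test (two-sided), the smallest that 3 against 3 libraries allow, and 0.4 to 0.8 for the other 6.

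The size of these differences depended on the replicate 2 libraries. For Cma1 and Fcer1a, shCtrl 2 stood farther from replicates 3 and 4 of its group (log2 -1.75 and -1.97) than shCxxc5 2 did (0.73 and 1.21). Without shCxxc5 2, the fitted log2 differences over the remaining 5 libraries were 0.98 for Prss34, 0.69 for Ms4a2 and 0.44 for Mcpt8. They were 0.31 for Cd200r3 and 0.15 for Cpa3. All of these were smaller than with shCxxc5 2. Those of 3 genes changed sign, to -0.19 for Il1rl1, -0.03 for Fcer1a and -0.10 for Hdc. Without shCtrl 2 it turned to -0.04 for Cma1. None of the 10 was called in any fit without 1 library.

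Over replicates 3 and 4 alone, 3 of the 10 genes rose, where the background of genes called higher was 10.96% of the 14193 tested, and 4 fell, where the background of genes called lower was 9.004%. The 3 that rose were Mcpt8, Prss34 and Ms4a2 (1.53-, 1.70- and 1.41-fold). The 4 that fell were Cpa3, Cma1, Il1rl1 and Fcer1a (1.08-, 1.25-, 1.31- and 1.36-fold lower). The DESeq2 fit with the replicate block called only 4 of the 7. These libraries varied little within groups: the common coefficient of variation in the edgeR fit was 0.029, against 0.31 over all 6 libraries. With 2 residual degrees of freedom, the p-values of this comparison measure that small spread alone.

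Within pairs, the 10 genes moved together in pair 2 and apart in pairs 3 and 4. In pair 2 all 10 had a log2 ratio above 1, against 4.86% of all genes tested, with values from 2.15 for Cma1 to 3.72 for Ms4a2. In pair 3 the ratios ran from -0.42 for Fcer1a to 0.92 for Prss34, and in pair 4 from -0.53 for Il1rl1 to 0.58 for Prss34. Mcpt8, Prss34, Ms4a2 and Cd200r3, 4 of 10, were higher in all 3 pairs, against 19.04% of all genes tested. Cpa3, Cma1, Il1rl1 and Fcer1a, also 4 of 10, were higher in pair 2 and lower in pairs 3 and 4, against 13.8%. Hdc stood at 0.19 and -0.005 in pairs 3 and 4 and Cyp11a1 at 0.09 and -0.04.

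**Figure D2:**
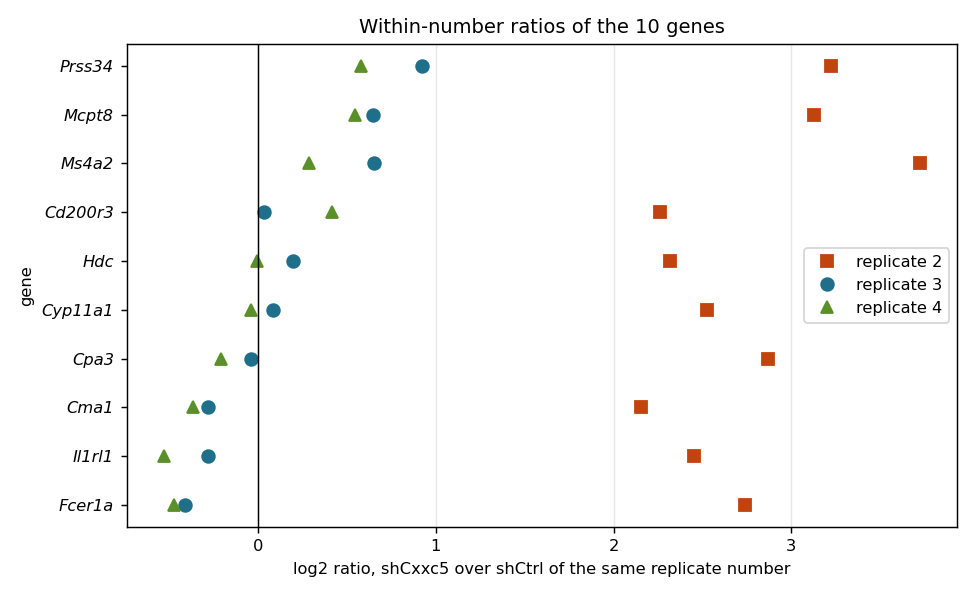
Log2 ratio of CPM, shCxxc5 over shCtrl, for each of the 10 genes (rows) in pairs 2, 3 and 4; each point is 1 pair of libraries and the vertical line is equality. All 10 squares (pair 2) lie above 2, and the circles and triangles (pairs 3 and 4) straddle 0 in an order led by Prss34 and Mcpt8 and ended by Fcer1a.

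The difference between pair 2 and the others was tested as an interaction term. All 10 genes were called, against 16.8% of all genes tested called in that direction. The shCxxc5 effect was larger in replicate 2 by 2.08 (SE 0.19) for Cd200r3, the least, to 3.24 (SE 0.17) for Ms4a2, the most, on the log2 scale (edgeR adjusted p from 1.16e-31 to 5.97e-11). Only replicates 3 and 4 leave residual degrees of freedom in that fit, 2 in all. The fit takes the lone replicate 2 libraries to vary as those do. Cxxc5 itself was 12.0-fold lower with shCxxc5 in pair 2 and 3.42- and 3.22-fold lower in pairs 3 and 4. The depth of the knockdown cannot be told apart from the other features of replicate 2, and its part was not tested.

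The 2 replicate 2 libraries departed from the rest in different ways. In shCtrl 2, compared with shCtrl 3 and 4, Fcer1a was 3.92-fold, Cma1 3.37-fold and Cpa3 2.09-fold lower, Prss34, Ms4a2 and Il1rl1 were 1.78-, 1.67- and 1.69-fold lower, and Mcpt8 and Hdc were 1.35- and 1.43-fold higher. In shCxxc5 2, compared with shCxxc5 3 and 4, all 10 were higher, from 1.66-fold for Cma1 and 2.32-fold for Fcer1a to 6.68-fold for Hdc and 7.81-fold for Mcpt8. The mast cell chymase and the IgE-binding chain were therefore the genes most reduced in shCtrl 2 and least raised in shCxxc5 2. Over both groups, replicate 2 was called higher than replicates 3 and 4 for 2 of the 10 genes. They were Mcpt8 (1.91, SE 0.52, edgeR adjusted p = 0.0328) and Hdc (1.78, SE 0.46, edgeR adjusted p = 0.0264). With 17.7% of all genes tested called in that direction, the count of 2 in 10 is near the background share. That count depends on single libraries: it was 10 without shCtrl 2, 8 (6 of them lower) without shCxxc5 2, 1 without shCtrl 4, and 0 without shCtrl 3, shCxxc5 3 or shCxxc5 4.

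**Figure D3:**
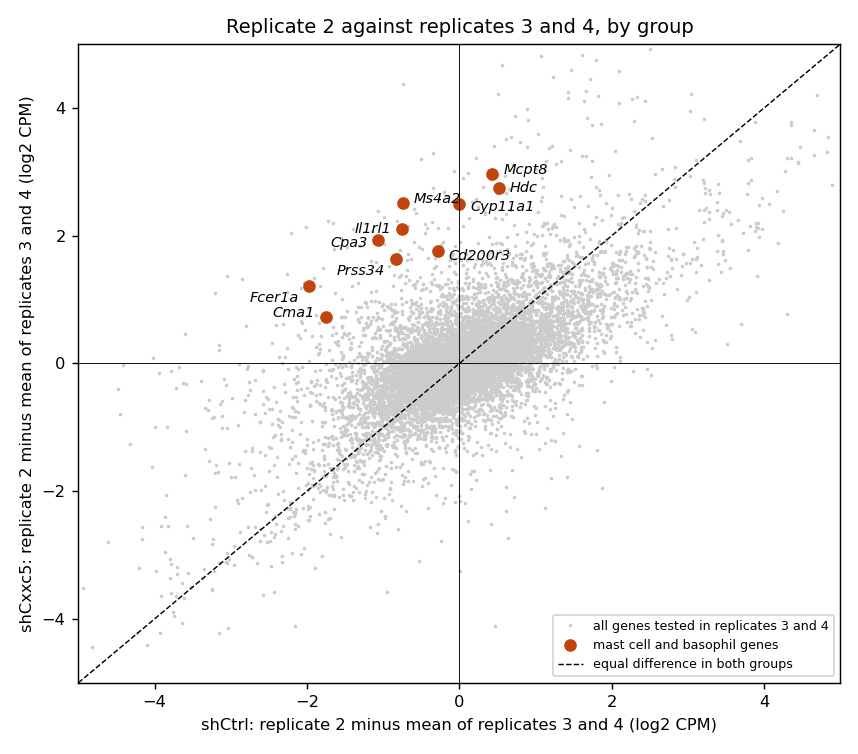
Log2 CPM of replicate 2 minus the mean of replicates 3 and 4, in shCtrl (x axis) and in shCxxc5 (y axis); grey points are the genes tested in replicates 3 and 4 (those beyond the axes are not drawn), filled circles the 10 genes, and the dashed line marks equal differences in both groups. All 10 genes lie above the dashed line, with Fcer1a and Cma1 farthest to the left.

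Genes of other cell types moved with replicate 2 too. Summed over 13 neutrophil granule genes in the table, shCxxc5 2 had 6223 CPM against 1040 to 1665 CPM in the other libraries. Of that sum Mpo, Ctsg and Prtn3 held 2910, 1032 and 894 CPM. All 13 were higher with shCxxc5 in pair 2. Yet Ltf, Camp and Lcn2 were lower in shCxxc5 2 than in any library numbered 3 or 4 (Ltf 34.0 against 63.5 to 80.4 CPM). Summed over 11 eosinophil genes, shCtrl 2 and shCxxc5 2 had 189 and 426 CPM against 37.2 to 46.0 CPM, and summed over 16 megakaryocyte genes 9397 and 2572 CPM against 468 to 728 CPM. B-cell genes went the other way, with sums of 15.01 and 15.7 CPM in shCtrl 2 and shCxxc5 2 against 30.4 to 34.1 CPM. For T, NK and innate lymphoid cells the sum was 38.9 CPM in shCtrl 2 and 88.3 to 106 CPM in the other 5 libraries. In shCxxc5 2 that sum joins genes that went opposite ways. Nkg7 was at 61.4 CPM there against 34.7 to 38.0 CPM in the libraries numbered 3 and 4. Thy1 was at 17.2 CPM there against 41.5 to 53.0 CPM. Of the defining T-cell genes, Cd3e was at 0 in all 6 libraries. Cd3d had 2 to 10 counts, and Cd3g and Cd2 had 0 to 2.

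Other cell types' genes also differed between the groups in replicates 3 and 4, where the replicate 2 libraries do not enter. Of 13 tested megakaryocyte genes 7 fell and 0 rose (background 9.004% called lower and 10.96% called higher), with a median of -0.56. Their sums were 728 and 711 CPM in shCtrl 3 and 4 and 468 and 474 CPM in shCxxc5 3 and 4, and the integrin gene Itgb3 fell by 0.69 (SE 0.04, edgeR adjusted p = 2.83e-14). Of 13 neutrophil granule genes 4 rose, led by the protease gene Prtn3 (0.53, SE 0.03, edgeR adjusted p = 1.78e-12), and 2 fell, with sums of 1492 and 1476 against 1588 and 1665 CPM. Of 9 tested erythroid genes 1 rose and 3 fell, and of 7 macrophage and dendritic cell genes 0 rose and 4 fell. Of 6 tested eosinophil genes 0 were called by edgeR (1 higher at an unadjusted p under 0.05), with sums of 37.2 and 43.9 CPM in shCtrl and 46.0 and 39.8 CPM in shCxxc5. The part of these cell types in the results, in replicate 2 as in replicates 3 and 4, was not tested.

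Ratios of 2 genes within a library do not depend on the library's scaling. They were computed for all 45 combinations of the 10 genes after the values above were seen, and they carry no test. In 28 of the 45 combinations the ratio shifted the same way with shCxxc5 in all 3 pairs. No share for combinations of other genes is given, so this count cannot be called high or low. Each shift is the difference of the pair ratios of the 2 genes given above, so genes with large pair ratios, such as Mcpt8 and Prss34, shift upward over most others.

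Mcpt8 over Cma1 was 1.51, 0.299 and 0.365 in shCtrl 2, 3 and 4 and 2.96, 0.570 and 0.691 in shCxxc5 2, 3 and 4. The ratio was thus 1.96-, 1.90- and 1.89-fold higher with shCxxc5 in pairs 2, 3 and 4 (mean log2 shift 0.94 ± 0.03, SD, n = 3 pairs), although its level in replicate 2 was far from that in the others. Prss34 over Cma1 was 2.10-, 2.31- and 1.93-fold higher (1.08 ± 0.13). Ms4a2 over Fcer1a, the beta over the alpha chain of the IgE receptor, was 1.98-, 2.10- and 1.69-fold higher (0.94 ± 0.16). By the SD of its shift, Mcpt8 over Cma1 ranked 3 among the 45, and it was picked for display after these shifts were seen. Cpa3 over Il1rl1 was 1.34-, 1.19- and 1.25-fold higher (0.33 ± 0.09).

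A wider list of 16 mast cell genes had 10 that could be tested, of which 0 rose and 5 fell in replicates 3 and 4, against 10.96% of all genes tested called higher and 9.004% called lower. Besides Cma1 these were Slc18a2, the vesicle transporter that loads histamine (-0.63, SE 0.06, edgeR adjusted p = 1.43e-08), the tryptase Tpsb2 (-0.45, SE 0.06, edgeR adjusted p = 5.1e-06), Tph1, which starts serotonin synthesis (-0.31), and the transcription factor Mitf (-0.34). The median log2 difference of the list was -0.38, against -0.003 for all genes tested. In pairs 3 and 4, 9 of its 10 tested genes were lower in both, against 36.2% of all genes tested, and in pair 2 its median ratio was 1.49. Tpsb2 was at 13.2, 123 and 123 CPM in shCtrl 2, 3 and 4 and at 49.4, 96.7 and 81.5 CPM in shCxxc5 2, 3 and 4. As for Cma1, shCtrl 2 was the lowest and shCxxc5 3 and 4 lay below shCtrl 3 and 4, but shCxxc5 2 was not the highest. The near-identical tryptase Tpsab1, with which it may share reads, stood at -0.32 in replicates 3 and 4 (SE 0.10, edgeR adjusted p = 0.0897). Of the protease and receptor genes on the list, Mcpt9 had 0 counts in all 6 libraries and Cma2, Mrgprb1, Mrgprb2 and Mrgprx2 had at most 6 in any. Mcpt4, another connective tissue mast cell protease gene, had 11 to 110 counts, and Tpsab1 and Tpsb2 reached 171 and 123 CPM.

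The wider list of 15 basophil genes did not move as Mcpt8 and Prss34 did. Of 12 that could be tested in replicates 3 and 4, those 2 rose (background 10.96%) and 1 fell (background 9.004%): Cd69, an activation marker that many blood cells carry, by 0.92 (SE 0.04, edgeR adjusted p = 1.2e-15). The list's median was 0.01, and without the 3 genes already described -0.06. The cytokine gene Il4, made by basophils, was at 0.337, 0.490 and 0.470 CPM in shCtrl 2, 3 and 4 and at 1.21, 0.267 and 0.123 CPM in shCxxc5 2, 3 and 4, too low to be tested in replicates 3 and 4.

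**Figure D4:**
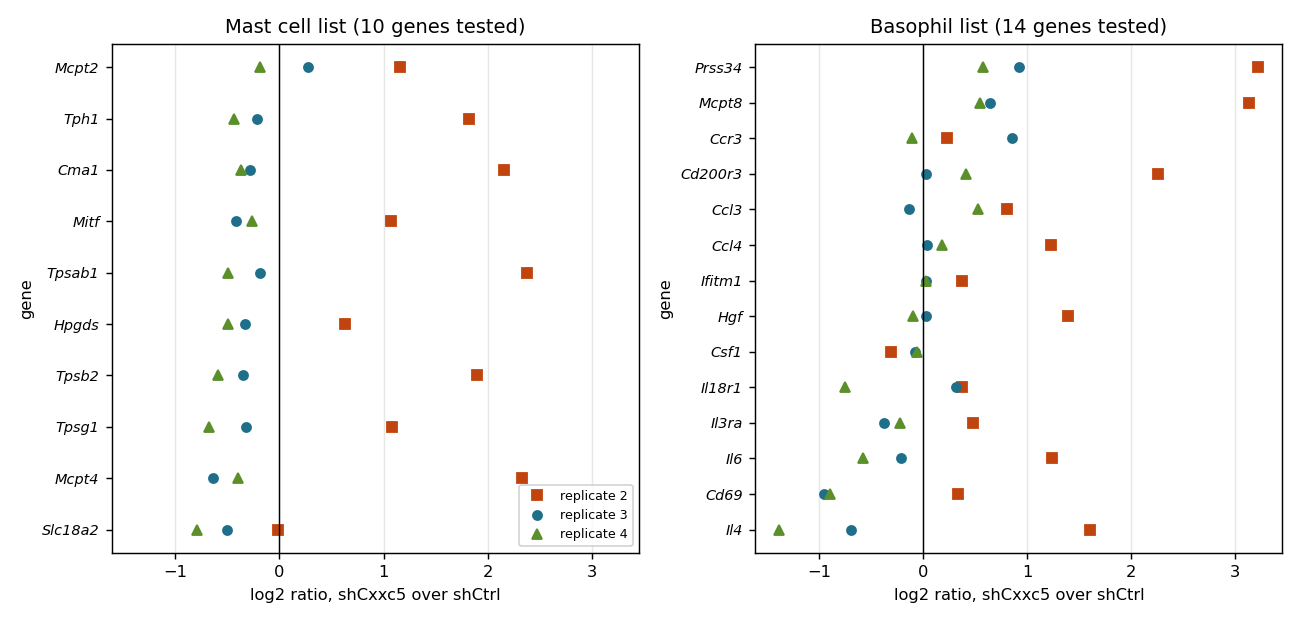
Log2 ratio, shCxxc5 over shCtrl, in pairs 2, 3 and 4 for the genes of the mast cell list (left, 10 genes) and of the basophil list (right, 14 genes) tested over all 6 libraries; each point is 1 pair. In the mast cell list pairs 3 and 4 lie left of 0 for all genes but Mcpt2, and in the basophil list 5 genes lie right of 0 in all 3 pairs, Prss34 and Mcpt8 farthest.

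Of 19 genes that carry the signal of the IgE receptor, 1 rose (Ms4a2) and 8 fell in replicates 3 and 4, with a median of -0.11, against 10.96% of all genes tested called higher and 9.004% called lower. By unadjusted p the first of those that fell were the adaptors Lcp2 (-0.46, SE 0.05, edgeR adjusted p = 3.69e-08) and Lat2 (-0.30) and the kinase Syk (-0.19, the smallest fall of the 8). Fcer1a, Prkcb (-0.41) and Lat (-0.37) fell more than Lat2. Syk, Lcp2 and many others of the list also serve other blood cells, and in pair 2 the list's median was -0.35, opposite to that of the 10 genes. Against the same background shares, of 11 genes for histamine and eicosanoid synthesis 4 fell, among them Alox5, which starts leukotriene synthesis (-0.53, SE 0.06, edgeR adjusted p = 3.2e-07), and Ptgs2, a prostaglandin synthase (-0.60, SE 0.14, edgeR adjusted p = 0.00195), and 0 rose. Of 11 genes for granule storage and release 0 rose and 0 fell by edgeR, with 4 lower at an unadjusted p under 0.05. Of 12 tested genes for cytokine receptors and homing, Il1rl1 alone was called.

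Among 16 transcription factor genes of these lineages, 1 rose and 5 fell in replicates 3 and 4, against 10.96% of all genes tested called higher and 9.004% called lower, so the 1 that rose is below the background share. Irf8, which directs monocyte and dendritic cell fates, rose by 0.18 (SE 0.06, edgeR adjusted p = 0.0400). Gata1, a factor of erythroid, megakaryocyte, mast cell and eosinophil lineages, fell by 0.55 (SE 0.13, edgeR adjusted p = 0.00318). Its level was 136, 10.7 and 10.3 CPM in shCtrl 2, 3 and 4 and 80.4, 7.39 and 6.91 CPM in shCxxc5 2, 3 and 4, so it did not follow the 10 genes in pair 2. Its partner Zfpm1 fell by 0.23 (SE 0.06) and the Notch target Hes1 by 1.09 (SE 0.20). Gata2, needed by mast cells and basophils, was at 80.6, 67.3 and 58.7 CPM in shCtrl 2, 3 and 4 and at 99.9, 58.9 and 55.5 CPM in shCxxc5 2, 3 and 4, and differed by -0.14 in replicates 3 and 4 (SE 0.06, edgeR adjusted p = 0.123). Cebpa, which opposes the mast cell fate, was at 56.8, 131 and 141 CPM in shCtrl 2, 3 and 4 and at 194, 141 and 142 CPM in shCxxc5 2, 3 and 4, with no call there (0.07, edgeR adjusted p = 0.298).

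Among 11015 candidate genes, those whose levels ran most like Mcpt8 over the 6 libraries (Euclidean distance of gene-centred log2 CPM) were Mpo, the myeloperoxidase of neutrophil granules (0.55), Hdc (0.80), Akr1c18 (0.82), Cyp11a1 (0.89) and Dgat2 (0.89). Mpo was at 360, 346 and 351 CPM in shCtrl 2, 3 and 4 and at 2910 CPM in shCxxc5 2, with 391 and 386 CPM in shCxxc5 3 and 4. The nearest to Cpa3 were Rhou (0.31), Kcnj2 (0.34), Trem3 (0.46), Il1rl1 (0.50) and Cd200r4 (0.50). By nearness to Mcpt8, Ms4a2 ranked 15, Cd200r3 27, Prss34 35, Il1rl1 46, Cpa3 47, Fcer1a 585 and Cma1 1397. By nearness to Cpa3, Prss34 ranked 33, Cma1 73 and Mcpt8 296. The order from Mcpt8 thus put Prss34 (distance 1.51) narrowly ahead of Cpa3 (1.66) and ahead of Cma1 (2.81). Hdc, Cyp11a1, Ms4a2 and Cd200r3 were nearer to Mcpt8 than Prss34 was. The order from Cpa3 put Prss34 ahead of Cma1 but Mcpt8 behind it. All these genes were measured in the same 6 libraries, and no test is given.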

How the data were processed

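Messenger RNA was measured in 6 libraries. The authors deposited raw counts per gene. The submitters' processing notes name STAR 2.5.2b, featureCounts 1.5.1, DESeq2 and the build GRCm38. Per the labels' protocols the kit was stranded, and single-read and paired-end runs are both named. For the counting, neither strand setting nor annotation is given in the sources used here. Symbols came from GENCODE M21: 49412 of 49671 identifiers matched, and the other 259 held 0.0557% of counts.

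The tests on counts used edgeR 4.0.16 under R 4.3.3 (TMM, filterByExpr, robust quasi-likelihood test on the group, Benjamini-Hochberg adjustment over all genes tested, threshold 0.05). SE is the absolute log2 fold change over the square root of F. CPM is TMM-scaled; log2 CPM and ratios have a prior count of 2. The code was tested on simulated counts. Alternatives were DESeq2 1.42.0, limma 3.58.1 (voom), other scalings and filters, the replicate block, and leaving out each library.

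Libraries of equal number were taken as pairs. Deviations from group means correlated at 0.670, 0.554 and 0.489 between libraries of equal number. Libraries 3 and 4 of opposite groups correlated at 0.489 and 0.475. With replicate 2 apart in both groups, centring each group alone makes libraries 3 and 4 deviate alike. These values therefore cannot show whether 3 pairs with 3 and 4 with 4. What a number stands for is not given in the labels.

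The 10 genes and all lists were chosen with earlier results of these data known. Also named are the 3 genes of smallest unadjusted p in replicates 3 and 4 for the wider lists, the 5 nearest in pattern to Mcpt8 and to Cpa3, and Cxxc5, Ly6a and Kit. Every other gene named was chosen after its values were seen. Some genes of this rule, from lists of other cell types, are given only in sums. Counts carry no molecular identifiers.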

Additional observations from a re-analysis of the deposited data

How the results depend on the processing

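Of 459 alternative values for the log2 differences of the 10 genes, 416 kept their direction and side of the threshold, 20 lost the call, 8 gained one and 15 changed sign. All 90 alternatives of the pair ratios moved by less than the spread between pairs. That spread is wide because pair 2 stood apart (for Cma1 2.155, -0.284 and -0.37 in pairs 2, 3 and 4). It is therefore a loose limit for the small ratios of pairs 3 and 4. With the replicate block, edgeR called 0 of the 10 genes over all 6 libraries and 7 in replicates 3 and 4, as without it; DESeq2 with the replicate block called 4 in replicates 3 and 4. Cpa3 also lost its call without robust fitting (edgeR adjusted p = 0.0638). Leaving out each library gave 5 to 6 calls in replicates 3 and 4 and 0 to 10 for replicate 2 against the others, where no filter gave 0. The interaction called all 10 under each alternative run. Over all 6 libraries, leaving out each library gave -0.037 to 0.61 for Cma1, -0.19 to 1.23 for Il1rl1, -0.028 to 0.78 for Fcer1a and -0.10 to 1.86 for Hdc, and in replicates 3 and 4 -0.062 to 0.11 for Cyp11a1. For replicate 2 against the others it gave -1.06 to 1.93 for Cpa3, -1.76 to 0.72 for Cma1, -0.83 to 1.65 for Prss34, -0.74 to 2.505 for Ms4a2, -0.31 to 1.77 for Cd200r3, -0.76 to 2.10 for Il1rl1 and -1.99 to 1.22 for Fcer1a, which stood at 0.042 with library size alone and at 0.061 and 0.062 without shCtrl 3 and 4. A fit of 2 against 1 library takes the lone library to vary as the others do. The cause of these changes was not tested.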
